A study of Mus musculus with 7 samples.

Results

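The regions described here lie at 10 genes of the goblet cell, the mucus-secreting cell of the intestinal epithelium. They are the gel-forming mucin genes Muc2, Muc5ac, Muc5b and Muc6, the genes Tff3, Fcgbp and Zg16 of other mucus proteins, and the genes Agr2, Spdef and Creb3l1 of goblet cell maturation. A peak was taken for a gene if its summit lay in the gene body or if, outside all gene bodies, the gene was the nearest protein-coding gene within 50 kb, with genes from RefSeq on GRCm38.p6 (mm10). This gave 70 of 103809 merged regions, built from 382 of 531679 peaks, and all 10 genes had at least 1 region. The genes were chosen on results of these same libraries, since a region in Muc5ac was known to be open in every Allo library and absent from the Syn lists. The values that compare recipient types are therefore given as descriptions, with no test, beside the share of all regions that show the same pattern.

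The cells were Lgr5+ intestinal stem cells, sorted by flow cytometry from B6-GFP-Lgr5 female mice of 8 to 12 weeks that had been lethally irradiated and given a bone marrow transplant 7 days earlier. Syn recipients (3 libraries) had a syngeneic transplant and Allo recipients (4 libraries) had one from BALB/c donors, so that irradiation and the recipient strain are common to both. Each library came from 50000 cells pooled from 3 to 4 mice and was made by Omni-ATAC-seq, in which a transposase cuts and tags open DNA. The comparison asks how open chromatin of stem cells differs in graft-versus-host disease, in which donor T cells injure the gut of the recipient.

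Goblet cells descend from the Lgr5+ stem cells through secretory progenitors. They store mucins, large glycoproteins that swell into the mucus gel. Muc2 is the main mucin of the intestinal gel, while Muc5ac and Muc6 are known from the stomach and Muc5b from the airways and salivary glands. The 4 mucin genes lie side by side on chromosome 7 and are thought to have arisen by duplication.

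The lists held 71925, 73668 and 76438 peaks in Syn 1 to 3 and 62977, 76091, 88861 and 81719 in Allo 1 to 4, and the read depth behind them is unknown. Allo 3 and Allo 4 have the longest lists, and their peak names follow a different pattern. Of 8 stem cell marker genes, 7, Lgr5 among them, had a peak within 1 kb of a gene end in every library. Of 10 leukocyte marker genes matched, 2 had one, Cd4 and Itgam, in all 7 libraries, while Ptprc, Cd3e, Cd3d and Cd3g had none in any library. Of 8 enterocyte marker genes, 7 also had a peak within 1 kb of a gene end in every library. Of 6 Paneth cell marker genes matched, 5 had one in each library but Allo 1, where 4 had one. Such peaks therefore do not set stem cells apart from enterocytes or Paneth cells. An open region shows neither transcription nor which gene it acts on.

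RefSeq promoter sequences were matched for 5 of the 10 genes, and the 250 bases before each start are shown. The window of Muc2 (chr7:141690090-141690339, plus strand), of Fcgbp (chr7:28070986-28071235, plus strand) and of Agr2 (chr12:35992675-35992924, plus strand) lay in full inside a region open in all 7 libraries. That of Spdef (chr17:27728952-27729201, minus strand) lay inside such a region for 245 of its 250 bases. The Spdef start used for it, 27728951, lies within the gene body and not at its higher end. That of Muc6 (chr7:141655394-141655643, minus strand) held no peak in any library. Capitals mark matches to 10 of the 11 motifs searched; the KLF-type CACCC, found in 57.5% of promoters, is left in lower case.
Muc2: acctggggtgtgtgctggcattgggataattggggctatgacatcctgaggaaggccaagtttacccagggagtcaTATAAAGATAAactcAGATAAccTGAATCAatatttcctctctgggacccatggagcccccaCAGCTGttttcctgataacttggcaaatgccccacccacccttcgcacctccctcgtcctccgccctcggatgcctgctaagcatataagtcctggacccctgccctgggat
Muc6: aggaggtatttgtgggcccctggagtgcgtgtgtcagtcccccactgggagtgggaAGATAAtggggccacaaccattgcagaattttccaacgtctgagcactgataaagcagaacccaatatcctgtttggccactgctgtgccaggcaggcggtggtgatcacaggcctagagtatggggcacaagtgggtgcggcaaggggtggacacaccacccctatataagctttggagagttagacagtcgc
Fcgbp: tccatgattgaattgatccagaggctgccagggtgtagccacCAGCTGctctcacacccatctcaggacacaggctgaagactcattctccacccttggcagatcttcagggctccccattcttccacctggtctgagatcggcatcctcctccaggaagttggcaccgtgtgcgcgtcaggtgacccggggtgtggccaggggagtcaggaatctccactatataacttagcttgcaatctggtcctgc
Agr2: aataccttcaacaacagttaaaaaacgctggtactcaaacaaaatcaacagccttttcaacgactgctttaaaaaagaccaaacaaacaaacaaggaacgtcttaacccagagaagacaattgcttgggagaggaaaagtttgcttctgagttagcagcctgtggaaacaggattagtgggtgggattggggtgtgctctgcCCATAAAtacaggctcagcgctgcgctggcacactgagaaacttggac
Spdef: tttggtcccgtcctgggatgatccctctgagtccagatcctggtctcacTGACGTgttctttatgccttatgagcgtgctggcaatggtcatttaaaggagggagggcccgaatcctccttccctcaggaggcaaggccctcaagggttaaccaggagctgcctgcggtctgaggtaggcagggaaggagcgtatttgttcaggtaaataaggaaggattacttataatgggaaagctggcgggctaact

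The motifs were searched on both strands in windows from 250 bases before to 50 after the start, and the shares are of 32851 such windows. Counted from the start, the Muc2 window held a GATA-type motif, AGATAA, found in 11.2% of windows, at -169 to -164 and again at -159 to -154. The first of these shares a base with a TATAAA (13.6% of windows) at -174 to -169. It also held TGANTCA, the AP-1 type (7.81%), at -151 to -145 and the E-box CAGCTG (16.3%) at -112 to -107. Fcgbp held the same E-box at -208 to -203 and Muc6 an AGATAA at -194 to -189. Agr2 held TTTATNG, the CDX type (10.9%), on the other strand at -48 to -42. Spdef held TGACGT, the CREB type (7.51%), at -201 to -196. None of the 5 windows held the IRF-type GAAANNGAA (8.56%), the STAT-type TTCNNNGAA (8.30%), the SPDEF-type CCGGAT (6.04%) or the FOXA-type TGTTTAC (3.65%). These are matches of letters and show no binding.

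The share of goblet gene regions open in every library was not far above that of all merged regions. Of the 70 regions, 39 (55.7%) were open in all 7 libraries, against 48.5% of all merged regions, 2 had a peak in each Allo library but none in Syn (Allo-only), 1 had a peak in each Syn library but none in Allo (Syn-only), and 28 were open in other combinations of libraries. Over all merged regions 1.14% were Allo-only and 1.01% Syn-only. The number of goblet gene regions held was 46, 50 and 49 in Syn 1 to 3 and 46, 50, 61 and 63 in Allo 1 to 4. Only Allo 3 and Allo 4 lay above the Syn libraries, and these are the longest lists. The leukocyte marker genes likewise had 10, 11 and 9 regions in Syn 1 to 3 and 8, 12, 16 and 14 in Allo 1 to 4. The part of list length and of other cells in these counts was not tested. Per 10000 peaks the libraries held 6.67, 7.19 and 6.67 goblet gene peaks in Syn and 7.62, 7.10, 7.09 and 7.95 in Allo, so that the groups overlapped. Regions open in Allo 3 or Allo 4 and in no other library numbered 13 of 70 (18.6%), against 14.3% of all merged regions. The farthest region inside the 50 kb limit lay 41448 bp from Creb3l1, in 1 library at a percentile of 0.818, and no region beyond the limit had any of the 10 genes as its nearest.

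**Figure D1:**
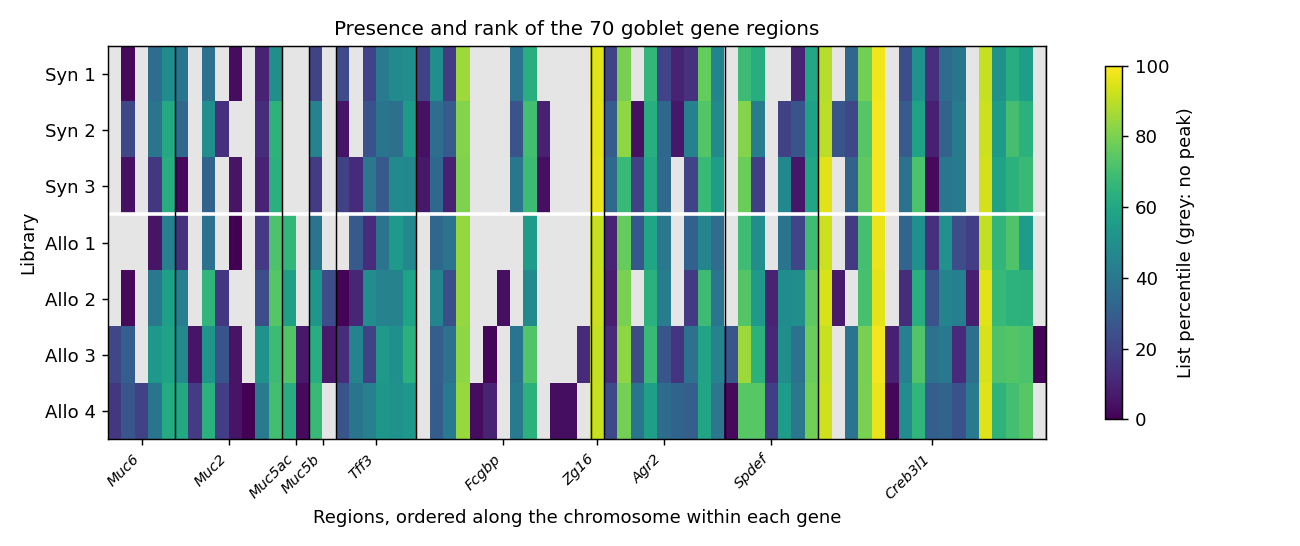
Presence and rank of the 70 goblet gene regions (columns, grouped by gene and ordered along the chromosome) in the 7 libraries (rows, Syn above the white line). Colour gives the list percentile, with 100 for the strongest peak of a list by −log10 q, and grey means no peak. Columns of high rank in Creb3l1, Zg16 and Fcgbp are filled in every library, and the first Muc5ac column is filled in the 4 Allo rows alone.

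Peaks were ranked within each library by the authors' −log10 q. The list percentile is the rank among all peaks of that library, with 100 for the strongest. The shared percentile is the rank among the 50324 regions open in all 7 libraries, which makes the lists equally long. A shared region was said to separate the recipient types where every Allo shared percentile lay above, or below, every Syn one. Of the 39 shared goblet gene regions, 7 (17.9%) ranked higher in every Allo library and 3 (7.69%) lower, against 8.41% and 8.86% of all shared regions. The median difference, Allo minus Syn, was 3.26 percentile points over the 39 regions, of which 27 were positive and 12 negative, and 0.153 over all shared regions. Lists of other cell types also had positive medians: 6.50 points over the 12 shared regions of Paneth cell markers, with 2 higher and 1 lower, and 3.07 over the 8 of leukocyte markers, with 0 in either direction. Enterocyte markers had -2.71 over 21 shared regions, with 0 higher and 3 lower, and stem cell markers -1.85 over 60, with 6 higher and 8 lower. The part of other cells in the goblet gene median was not tested. The split of 7 and 3 depends on the ranking. On the list percentile 4 were higher and 2 lower, against 8.06% and 6.58% of all shared regions, and 3 and 2 of these were among the 7 and 3 above. Ranked by the authors' fold over background, 2 were higher and 4 lower (5.13% and 10.3%, against 5.78% and 6.07% of all shared regions). Of the 10 separating regions, only those at Muc5b, at Creb3l1 (3799 bp away) and at Agr2 (13054 bp away) also separated the types by fold. Without Syn 2, 11 of 39 ranked higher (28.2%, against 12.9% of all shared regions), and 5 ranked lower without Syn 1, Syn 3, Allo 2 or Allo 3 (12.5% to 12.8%, against 10.7% to 14.3%).

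**Figure D2:**
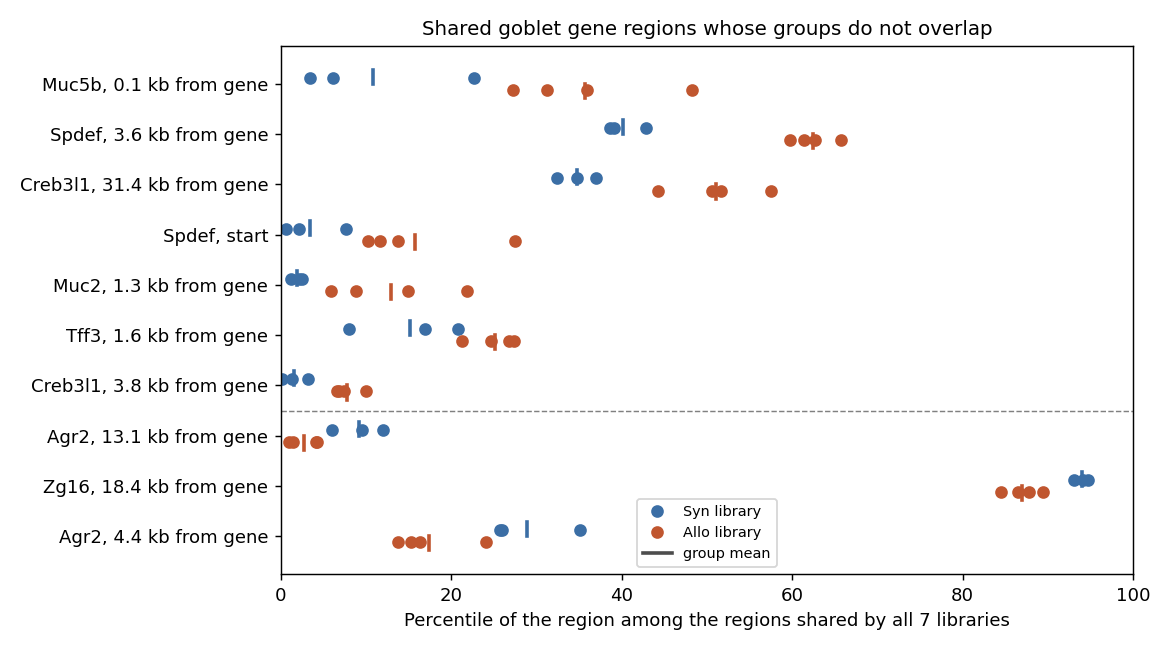
The 10 shared regions whose recipient types do not overlap, with the shared percentile of each library as a point and the mean of each type as a short line. Regions above the dashed line rank higher in the Allo libraries and those below rank lower, and the gap is widest at Spdef, 3.6 kb from the gene, where Syn points end at 42.9 and Allo points start at 59.7.

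Across the gel-forming mucin locus (chromosome 7, 141633459 to 141873089, from Muc6 through Muc2 and Muc5ac to Muc5b) the Syn libraries held 10, 11 and 10 peaks and the Allo libraries 10, 12, 17 and 16. The peaks covered 4533, 4376 and 4530 bp in Syn, 4347 and 5427 bp in Allo 1 and 2, and 8736 and 9437 bp in Allo 3 and 4. Allo 1 and 2 thus held about as many peaks as the Syn libraries, and Allo 3 and 4 held more. The locus had 17 regions, of which 7 were shared, 7 (41.2%) were in no Syn library and 0 were in no Allo library, against 21.0% and 6.63% of all merged regions. Of the 7 without a Syn peak, 5 were in Allo 3 or 4 alone (29.4% of the 17, against 14.3% of all merged regions) and 1, in Muc5ac, was in all 4 Allo libraries. The genes were chosen on that Muc5ac region, which is part of the 41.2%, so this share does not measure an excess. Of the 7 shared regions 2 ranked higher in every Allo library and 0 lower (8.41% and 8.86% of all shared regions).

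**Figure D3:**
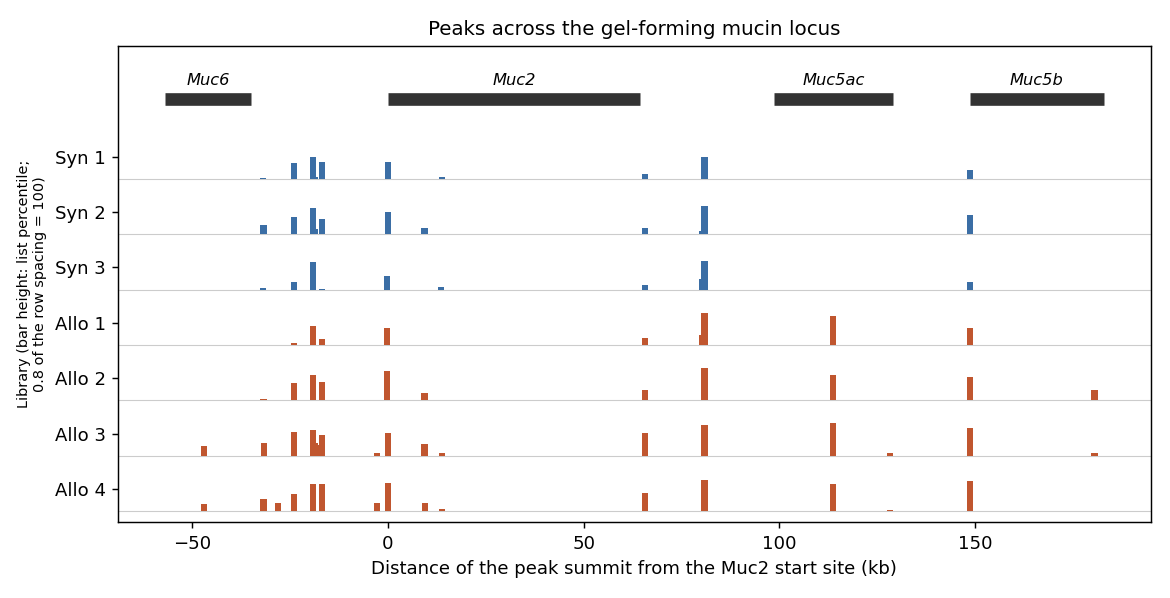
Peaks across the gel-forming mucin locus in each library, by distance of the summit from the Muc2 start (kb). Bar height is the list percentile, bars have a fixed width that is wider than the peaks, and dark blocks are gene bodies. A bar near 114 kb, inside Muc5ac, stands in each Allo row and in no Syn row, while the bars at the Muc2 start, at the low end of Muc5b and near 81 kb stand in all 7.

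Muc5ac, whose product forms mucus at the stomach surface, had no peak in any Syn library. A region inside its body (chromosome 7, 141803683 to 141804331) was open in all 4 Allo libraries, with list percentiles of 66.3, 56.7, 72.9 and 62.2 in Allo 1 to 4 (64.5 ± 6.83, SD, n = 4). The authors' −log10 q of these peaks was 22.6, 18.1, 34.1 and 22.6 and their fold over background 7.34, 6.42, 10.5 and 8.26, while the lowest −log10 q listed in the Syn libraries was 1.30, 1.37 and 1.42. The 4 peaks were 457 to 631 bp wide and their summits lay within 53 bp. The nearest Syn peak was at least 32169 bp away. By mean list percentile the region ranked 8 among the 1183 Allo-only regions, whose median was 28.7, and this rank is part of why the gene was chosen. With peaks of −log10 q 5 or more, with lists of matched length, with summit windows and with 50% of the region covered, it was still held by all 4 Allo libraries and by no Syn library. This pattern is the one that chose the gene, and these values describe it. The table used gives no exons, so whether the region is exonic is not stated. A second, weak region at the higher end of Muc5ac was open in Allo 3 and Allo 4, at list percentiles of 6.99 and 2.62.

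Among the other 1182 Allo-only regions, those at Il7, Frmd4a and Tox2 had the Allo percentiles most like this one, with mean absolute differences of 1.04, 1.89 and 4.15 over the 4 Allo libraries. The region near Il7, which encodes interleukin 7 (chromosome 3, 7575740 to 7576550), had list percentiles of 65.2, 55.9, 72.4 and 63.9.

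**Figure D4:**
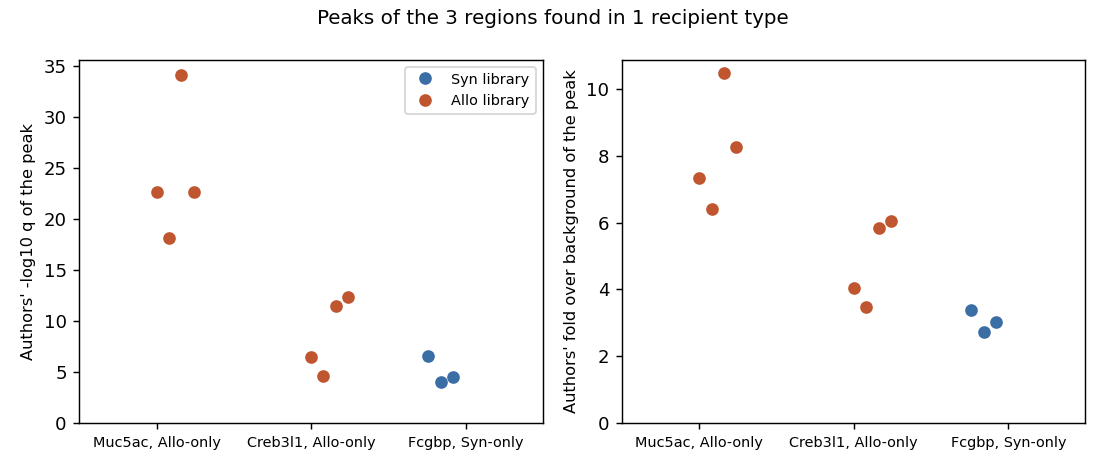
The authors' −log10 q (left) and fold over background (right) of each peak in the 3 goblet gene regions found in 1 recipient type only, 1 point a library. The Muc5ac points, 18.1 to 34.1 in −log10 q, lie above all points of the Creb3l1 and Fcgbp regions.

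Muc2 lies on chromosome 7 from 141690340 to 141754691. Every Syn library held 5 of its regions, and Allo 1 to 4 held 5, 5, 7 and 8. The region over its start (141689365 to 141690642) had shared percentiles of 17.9, 28.3 and 10.2 in Syn and 26.1, 49.0, 22.6 and 42.6 in Allo. The groups overlapped, with a mean of 18.8 ± 9.09 (SD, n = 3) in Syn and 35.0 ± 12.8 (SD, n = 4) in Allo. Its highest summit lay at -28, -22 and -275 bases from the start in Syn and at -162, -253, -28 and -40 in Allo, so that it varied within both types over the stretch that holds the AGATAA and E-box matches shown above. Just beyond the other end of the gene, a region (141755303 to 141757223) had shared percentiles of 2.09, 2.46 and 1.24 in Syn and 8.80, 5.94, 21.8 and 14.9 in Allo. It was 1921 bp wide when merged over libraries. Its highest peak was 223, 283 and 350 bp wide in Syn 1 to 3 and 510, 354, 919 and 1401 bp in Allo 1 to 4. Every Allo library lay above every Syn library there, by a mean of 10.9 points, all at low ranks. The list percentiles were apart too, at 10.1, 13.2 and 9.48 against 16.8, 24.0, 51.3 and 41.1. Farther out, 15949 bp from Muc2 towards Muc5ac, a region (141770501 to 141771713) stood at 30.3, 48.9 and 45.5 in Syn and 65.4, 60.7, 45.7 and 51.2 in Allo. The types overlapped there on the shared percentile but not on the list percentile, where Syn had 49.5, 64.8 and 63.6 and Allo 72.2, 73.8, 68.6 and 69.7. The remaining shared region, 16756 bp before the start, ranged from 0.183 to 37.9 and overlapped between types. The 4 Muc2 regions missing from some libraries reached list percentiles of at most 26.0, and 2 of them were in Allo 3 or 4 alone.

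Muc5b, on chromosome 7 from 141839059 to 141873089, had 1 region at its lower end in every library (141838738 to 141839162). Its shared percentiles were 6.14, 22.7 and 3.43 in Syn and 27.3, 31.2, 35.9 and 48.3 in Allo. All 4 Allo libraries lay above the Syn libraries, with means of 35.7 ± 9.12 (SD, n = 4) and 10.8 ± 10.4 (SD, n = 3), the widest mean difference of the 39 regions (24.9 points). Syn 2 came near to Allo 1, and on the list percentile the 2 changed order (44.3 and 39.0). Ranked by fold, the difference was 36.0 points and the groups stayed apart. A weak region in the gene body was open in Allo 2 and Allo 3 (list percentiles 23.8 and 6.99).

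Muc6, a mucin of gastric glands on chromosome 7 from 141633459 to 141655393, had no peak within 1 kb of either gene end in any library. Its 2 shared regions lay 10977 and 15819 bp from the gene, on the side of Muc2. The stronger (141671054 to 141672558) had shared percentiles of 29.5, 42.5 and 43.9 in Syn and 31.9, 36.3, 29.9 and 38.6 in Allo, which overlapped. In the other, the range was 2.04 to 24.0 over all libraries. Allo 3 and Allo 4 held 4 and 5 Muc6 regions, the Syn libraries 3 each and Allo 1 and Allo 2 held 2 and 3.

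Tff3, the trefoil factor that goblet cells secrete with mucin, lies on chromosome 17 from 31125306 to 31129611. At its higher end a region (31129473 to 31129866) had shared percentiles of 5.91, 7.37 and 16.2 in Syn and 6.17, 26.3, 2.89 and 17.0 in Allo, which overlapped. A region 1616 bp beyond that end (31130994 to 31131648), 9.7 kb from the neighbouring trefoil gene Tff2, had 20.8, 16.9 and 7.99 in Syn and 26.8, 21.3, 24.7 and 27.4 in Allo. Every Allo library lay above every Syn library, with Allo 2 at 21.3 and Syn 1 at 20.8 almost level. The mean difference of 9.81 points was 1.93 when ranked by fold, where the types overlapped. The 2 regions farther out had mean differences of 4.97 and 5.68 points, with overlapping groups.

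Fcgbp, which encodes an abundant protein of the mucus layer that is linked to mucin, spans 28071236 to 28120864 on chromosome 7. Its start region (28070442 to 28071381) was among the better ranked goblet gene regions, with shared percentiles of 79.0, 73.1 and 70.7 in Syn and 80.3, 76.3, 70.1 and 75.0 in Allo. The types did not separate there (mean difference 1.16 points), and the summits lay at 2 places in both, near -128 and near -219 bases from the start. The Syn-only region of the 10 genes lay 6412 bp before the start (28064531 to 28064945), with list percentiles of 19.6, 4.42 and 6.38 in Syn 1 to 3. It ranked 864 among the 1051 Syn-only regions, whose median was 17.8. It was no longer Syn-only under a −log10 q of at least 5, with lists of matched length and with coverage of 50% of the region. Of 8 Fcgbp regions open in some libraries, 5 were in Allo 3 or 4 alone.

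Zg16, the gene of a lectin-like mucus protein that binds bacteria, spans 127050156 to 127052675 on chromosome 7 and held no peak in its body or within 1 kb of its ends. The region assigned to it lay 18405 bp away (127070669 to 127071678), about midway to the gene AI467606. It was strong in every library, with shared percentiles of 93.1, 94.1 and 94.7 in Syn and 89.4, 87.8, 84.5 and 86.5 in Allo. Every Allo library ranked below every Syn library, 87.0 ± 2.04 (SD, n = 4) against 94.0 ± 0.812 (SD, n = 3). Ranked by fold the difference was -1.78 points and the types overlapped.

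Agr2 encodes a disulfide isomerase of the endoplasmic reticulum needed to make Muc2, and lies on chromosome 12 from 35992925 to 36004081. Its regions numbered 8, 9 and 8 in Syn 1 to 3 and 8, 7, 9 and 9 in Allo 1 to 4. The region over its start (35992474 to 35994035) had shared percentiles of 52.2, 45.6 and 41.1 in Syn and 49.1, 46.0, 44.2 and 32.4 in Allo, which overlapped. Its highest summit lay inside the gene, 823 to 874 bases past the start, in all libraries but Allo 3, where it lay 21 bases past the start. Beyond the higher end of the gene, between Agr2 and Tspan13, a region (36008165 to 36009345) had 25.7, 25.9 and 35.1 in Syn and 24.1, 16.3, 15.3 and 13.8 in Allo, each Allo library below each Syn library. Ranked by fold its mean difference was -4.69 points, with overlap. Its neighbour (36007363 to 36008024) had the most negative mean difference of the 39 regions, -21 points, but Allo 2 at 53.1 lay above Syn 3 at 50.8. The 5 shared Agr2 regions that did not separate the types ranged from 3.20 to 75.3, with 3 positive differences. On the other side of the gene a weak region (35979591 to 35980014) had 6.06, 9.57 and 12.0 in Syn and 4.30, 0.933, 1.41 and 4.12 in Allo. Allo lay below Syn there on the shared percentile but not on the list percentile, where Allo 4 at 21.9 passed Syn 1 at 20.5. Both types held the strong region next to it (35981544 to 35982246), at 51.3 to 75.3 with overlap.

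Spdef encodes an ETS transcription factor that drives maturation of goblet and Paneth cells, and lies on chromosome 17 from 27714446 to 27731003. Syn 1 to 3 held 4, 5 and 5 of its regions, and Allo 1 to 4 held 5, 6, 7 and 7. A region 3601 bp beyond its higher end, in the direction of Ilrun (27734279 to 27735469), had shared percentiles of 42.9, 38.6 and 39.1 in Syn and 61.4, 62.7, 59.7 and 65.7 in Allo. The groups were tight and far apart there, with means of 40.2 ± 2.39 (SD, n = 3) and 62.4 ± 2.55 (SD, n = 4). They also stayed apart on the list percentile, at 59.4, 57.3 and 59.0 against 68.9, 75.2, 77.0 and 78.8. Ranked by fold the mean difference was 8.84 points and the groups overlapped. No library had a peak within 1 kb of either end of Spdef. The region over the start shown above, which lies within the gene body (27728440 to 27729196), had shared percentiles of 2.12, 7.71 and 0.628 in Syn. It had 11.7, 27.5, 10.2 and 13.7 in Allo, each Allo library above each Syn library. On the list percentile the types overlapped there (10.2, 25.8 and 6.01 against 21, 49.9, 37.7 and 39.5). Within the gene body, the strongest region (27716749 to 27717378) did not separate the types (64.9 ± 8.84 in Syn, SD, n = 3, and 63.4 ± 7.10 in Allo, SD, n = 4), although ranked by fold it was lower in every Allo library, by a mean of -18.5 points. A further region in the body (27719619 to 27720208) varied widely within Syn (46.6, 19.9 and 3.71) and stood at 38.1, 32.4, 38.9 and 58.4 in Allo, with overlap.

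Creb3l1 encodes a membrane-bound transcription factor of the endoplasmic reticulum that acts in goblet cell differentiation, and lies on chromosome 2 from 91982328 to 92024170. It held the most regions of the 10 genes, namely 13, 14 and 13 in Syn 1 to 3 and 14, 14, 16 and 15 in Allo 1 to 4, and the strongest. The top one, in its body (92007868 to 92009091), had shared percentiles of 96.9, 98.2 and 98.1 in Syn and 96.5, 94.0, 96.9 and 95.4 in Allo, which overlapped. The region at its higher end (92024077 to 92024736) overlapped as well, at 32.9, 39.0 and 57.0 in Syn and 39.3, 44.4, 53.0 and 45.4 in Allo. A region 31355 bp beyond that end (92055308 to 92056286) had 32.4, 34.7 and 37.0 in Syn and 57.5, 50.6, 51.6 and 44.3 in Allo. Every Allo library lay above every Syn library, with a mean difference of 16.3 points on the shared and 13.2 on the list percentile. Ranked by fold the difference was 8.33 points and the types overlapped. A weak region 3799 bp beyond the end had 3.20, 1.35 and 0.199 in Syn and 6.62, 6.85, 10 and 7.41 in Allo, apart on this scale and overlapping on the list percentile. The other 10 shared regions of Creb3l1 ranged from 1.38 to 98.2, with 7 positive mean differences and none beyond -8.68 or 6.20 points. They include 2 more strong regions, in the body (91984386 to 91985311) at 84.3, 85.5 and 93.0 in Syn and 90.4, 90.6, 85.0 and 88.0 in Allo, and 23581 bp beyond the end (92047421 to 92048533) at 87.4, 88.6 and 90.0 against 88.5, 93.1, 89.1 and 91.9. Creb3l1 thus held several of the best ranked goblet gene regions, and these overlapped between recipient types. The second Allo-only region of the 10 genes lay 17545 bp beyond the end (92041452 to 92042473), with list percentiles of 18.2, 8.48, 37.0 and 40.8 in Allo 1 to 4. It ranked 695 among the 1183 Allo-only regions and was not Allo-only under 3 settings, being held by 3 libraries with a −log10 q of at least 5, by 3 with lists of matched length and by 2 with coverage of 50% of the region.

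Counted by gene, 1 of the 10 genes, Muc5ac, had more regions in every Allo library than in every Syn library (Allo 1 to 4 held 1, 1, 2 and 2, and the Syn libraries 0), and 0 had fewer. Of the 17298 genes with a region, 2.17% had more and 1.34% fewer. The Muc5ac count follows from the region that chose the gene, so these shares do not measure an excess. Summit positions of the recipient types did not overlap in 3 of the 39 shared regions (7.69%), against 5.87% of all shared regions. All 3 were in Creb3l1 or at its end, and in the clearest (92020865 to 92021427) the summits lay at -34, -11 and -54 bp from their common median in Syn and at 58, 60, 0 and 58 bp in Allo. The summits of a shared region spanned a median of 73.0 bp in the 39 regions and 71.0 bp in all shared regions. In width (median 662 bp) and list percentile (median 52.0) the 39 regions lay below all shared regions (889 bp and 64.7).

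Of 64 other goblet and mucin genes listed, 63 were matched and 59 had a region, 443 regions in all. Of the 278 shared regions 38 (13.7%) ranked higher in every Allo library and 23 (8.27%) lower, against 8.41% and 8.86% of all shared regions, and the median difference was 0.293 points against 0.153. There were 3 Allo-only and 4 Syn-only regions among the 443, where 1.14% and 1.01% of all merged regions are one-sided. Genes of folding and secretion, such as Ern2 and Xbp1, had 15 of 111 shared regions higher (13.5%) and 3 lower (2.70%), with a median of 1.48 points. Mucin glycosylation genes had 13 of 66 higher (19.7%) and 8 lower (12.1%), with a median of -0.89. Fate factors, with Atoh1, Klf4, Neurog3, Nkx2-2, Dll1 and Dll4 among them, had 6 of 55 higher (10.9%) and 4 lower (7.27%). Their median was -0.425. Secreted goblet products, such as Clca1 and Retnlb, had 3 of 26 higher (11.5%) and 7 lower (26.9%), with a median of -5.05. Membrane mucins had 1 of 20 in each direction (5.0%), with a median of 0.0126. The Allo-only regions lay at or near Gcnt1 and Galnt7, which act in mucin glycosylation, and the membrane mucin gene Muc20. The Syn-only regions were at or near Creb3l4, Scin, Galnt7 and Muc20. The best ranked of these was near Gcnt1, with a mean list percentile of 36.7, below the 64.5 of the Muc5ac region.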

How the data were processed

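Omni-ATAC-seq peak lists of 7 libraries, 3 Syn and 4 Allo by the sample titles, were used. Trim Galore, Bowtie2, MACS2, MACS3 and the build mm10 are listed, with neither version nor role, per the submitters' processing notes. The authors deposited 1 list per library, with a score, a fold (ratio) over background, −log10 p and −log10 q per peak and an offset of the summit. For read filters and the peak threshold, the sources used here give nothing, and read depth is unknown. Libraries are pools of mice, so their spread is between pools.

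Peaks on chromosomes 1 to 19 and X were merged by an overlap of at least 1 bp. A region took the strongest peak of each library. Genes and promoter sequences came from RefSeq (GRCm38.p6), and motifs were fixed with the gene lists. The members and lists were chosen with earlier results of these data known. Named in full are, for each gene, its best ranked region, the regions at its ends or start, those in 1 recipient type only and those that separate the types. A region of Agr2 (36007363), 3 of Creb3l1 (91984386, 92047421, 92020865) and 1 of Spdef (27719619) were added after their values were seen. Results were recomputed with peaks of −log10 q 5 or more, with lists of matched length (62977 peaks), with 501 bp windows on the summits, with 50% of a region covered, with gene bodies only, with other rankings and without 1 or 2 libraries. The functions were checked on lists made with known patterns. Python 3.11.15, numpy 2.4.6 and pandas 2.3.3 were used. Groups were compared without a test, since the contrast chose the members.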

Additional observations from a re-analysis of the deposited data

Results flagged for a closer look

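Tff3 had 5 regions in Allo 1 and 6 in each of Allo 2, 3 and 4, which put Allo 1 apart from its group by the spread of the 4 values. This was the only such case among 34 sets of 4 Allo values. The chance rate of about 1 in 20 sets holds for continuous values. A set of tied counts with 1 other is always called, so this case carries no weight. Syn 1 and Syn 2 also held 5 regions of Tff3, and Syn 3 held 6.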

How the results depend on the processing

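Percentages in parentheses are of the shared goblet gene regions, then of all shared regions, under that setting. After a count of Allo-only or Syn-only regions, the percentage is the share of all merged regions with that pattern. With a −log10 q of at least 5 there were 1 Allo-only (1.12%), 0 Syn-only (1.01%) and 4 higher ranked regions (4 of 33, 12.1%, against 8.08%). With lists of matched length there were 0 Syn-only (1.43%) and 3 higher ranked regions (3 of 26, 11.5%, against 7.88%). With coverage of 50%, there were 1 Allo-only (1.11%), 0 Syn-only (1.43%) and 4 higher ranked regions (4 of 27, 14.8%, against 7.49%). With gene bodies only, which cuts the members to 29 regions, there were 1 Allo-only, 0 Syn-only, 1 higher and 0 lower ranked regions (of 10 shared). The list percentile gave 4 (10.3%, against 8.06%) and the fold 2 higher ranked regions (5.13%, against 5.78%). Without Allo 3 and 4 there were 2 Syn-only (3.07%), 11 higher (28.2%, against 17.1%) and 5 lower ranked regions (12.8%, against 16.2%). Without Allo 1 and 2 there were 9 Allo-only regions of 69 (6.90% of all merged regions). Under that setting 10 ranked higher (23.3%, against 22.2%) and 6 lower (14.0%, against 22.5%). Leaving out 1 library in turn gave 66 to 70 regions, 2 to 3 Allo-only (1.33% to 2.37%) and 1 to 2 Syn-only (1.05% to 1.98%). There were 7 to 11 higher ranked (17.1% to 28.2%, against 10.6% to 13.7%). Lower ranked were 3 to 5 (7.32% to 12.8%, against 10.7% to 14.3%). With fewer libraries the groups overlap less often, so these counts rise by construction, and the background rises with them. Summit positions and regions per gene were recomputed for the goblet genes alone. Their share over all regions or genes was not, so those counts are not given.

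The direction of the 10 regions that separate the types is set by their choice and is no sign of stability. Their separation was lost under some settings. The Spdef start region kept it in 11 of 14 settings that gave a value and the Tff3 region in 14 of 17. Those of Agr2 at 13054 bp and Creb3l1 at 3799 bp kept it in 13 of 15. Each of the other 6 kept it in all settings that gave a value but 1. Where a value was given, every loss came under another ranking (list percentile, fold, or −log10 q times width). The Spdef start and Tff3 regions lost it under each. Some regions were no longer in every library and gave no value. With lists of matched length these were Muc5b, Muc2, the Spdef start, Agr2 at 13054 bp and Creb3l1 at 3799 bp. All of these but Muc5b also dropped out with a −log10 q of at least 5. With coverage of 50% it was Muc2, the Spdef start, Agr2 at 4430 bp and Creb3l1 at 31355 bp. Leaving out libraries or keeping gene bodies only can hardly undo a complete separation, so those settings are no sign of stability. Of 353 percentile differences at 22 named regions, 325 moved by less than 1 SD, 28 by more, and a further 21 gave no value because a library lost the region. The SD is the larger of the Syn and Allo SD of the region, a wide limit. The setting with gene bodies only leaves the percentiles unchanged, so its values could not move. No paired analysis was possible because no test or fit was made to which a block could be added, and nothing in the labels ties the numbers of Syn pools to those of Allo pools. Depth is unknown, so a missing peak may be a region under the threshold.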
